A study of Mus musculus with 19 samples.

Results

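The heat shock chaperones followed here are 10 genes, chosen by name from the 56980 genes of the count table: *Hspa1a*, *Hspa1b*, *Hspa8*, *Hsph1*, *Dnajb1*, *Hsp90aa1*, *Hsp90ab1*, *Hspb1*, *Hspd1* and *Hspe1*. All 10 passed the filter on low counts and were tested among 18739 genes. They were measured in CD11b+ cells, which are microglia and other myeloid cells, sorted with magnetic beads from enzymatically dissociated brains, without olfactory bulb and cerebellum, of male mice aged 3 to 4 months that were *PARK7*/DJ-1 KO or their wildtype littermates. The KO line carries a gene trap in *Park7*, a sensor of oxidative stress that is lost in a familial form of Parkinson's disease, in every cell of the body. LPS, a bacterial cell wall component that triggers systemic inflammation, was injected into the peritoneum at 4 μg/g body weight 6 h before sampling, and PBS was the vehicle. There were 4 wildtype and 5 KO mice with PBS, and 5 wildtype and 5 KO mice with LPS, with 1 library per mouse.

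Chaperones bind unfolded proteins and help them to fold, and many of them are also made in excess when proteins are damaged by heat or other stress. HSF1, the heat shock factor, then binds heat shock elements in their promoters, which are repeats of the letters GAA in alternating orientation. Within the cell, HSP70 proteins work with J-domain partners that bring substrates and with exchange factors that release them, HSP90 matures kinases and receptors, small heat shock proteins hold unfolded proteins, and HSP60 with its lid HSP10 folds proteins inside mitochondria. Some chaperones, such as *Hspa8* and *Hsp90ab1*, are made at all times, while others, such as *Hspa1a* and *Hspa1b*, are the classical inducible genes, which are also known to respond to tissue handling.

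The promoters of the members differ in these elements. The window from 250 bases before to 50 after the start of the main transcript was searched on both strands for a heat shock element of 3 units, GAANNTTC followed by NNGAA or its mirror, and for the 2-unit forms GAANNTTC and TTCNNGAA, which also lie inside a 3-unit match. Among 21770 protein-coding promoters, 0.478% held the 3-unit form and 14.3% a 2-unit form. Of the 10 members, 2 held the 3-unit form and 7 a 2-unit form, and the other 3 held neither in this window. A CCAAT box was found in 7 members and in 39.9% of all promoters, and the letters TATAAA in 0 members and in 13.2%. The windows of *Hspa1a* and *Hspa1b*, which lie side by side on chromosome 17, were identical in 247 of the 250 bases before the start. The following stretches are shown to compare a stress-inducible HSP70, a small heat shock protein and a member without a match, with heat shock elements in capitals, and are read from GRCm39 in the direction of the gene. They are the 200 bases before the start of *Hspa1a* (chr17:35191133-35191332, minus strand), *Hspb1* (chr5:135916560-135916759, plus strand) and *Hspa8* (chr9:40712080-40712279, plus strand).
Hspa1a: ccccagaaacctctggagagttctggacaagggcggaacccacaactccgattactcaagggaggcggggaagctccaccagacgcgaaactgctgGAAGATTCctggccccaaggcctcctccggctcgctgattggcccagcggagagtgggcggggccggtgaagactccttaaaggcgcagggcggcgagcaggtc
Hspb1: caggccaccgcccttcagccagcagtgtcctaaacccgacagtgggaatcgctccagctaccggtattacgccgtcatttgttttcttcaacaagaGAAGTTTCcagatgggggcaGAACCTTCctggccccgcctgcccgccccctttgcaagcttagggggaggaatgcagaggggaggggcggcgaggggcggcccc
Hspa8: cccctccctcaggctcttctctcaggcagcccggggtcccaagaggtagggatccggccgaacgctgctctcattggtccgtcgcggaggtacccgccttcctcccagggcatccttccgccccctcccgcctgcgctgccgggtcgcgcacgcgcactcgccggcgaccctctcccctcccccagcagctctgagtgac

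*Hspd1*, which codes for HSP60, and *Hspe1*, which codes for HSP10, are read in opposite directions on chromosome 1, and the starts of their main transcripts are parted by 107 bases (chr1:55127184-55127290). Both promoter windows therefore hold the same 3-unit elements. This site is shown with 30 bases (chr1:55127212-55127241, plus strand), beside the upstream one of the 2-unit matches of *Hsph1* (chr5:149559816-149559845, minus strand), which has another 41 bases past the first base of its transcript, and the 2-unit match of *Dnajb1*, 28 bases past the first base of its transcript (chr8:84334839-84334868, plus strand).
Hspd1-Hspe1 site: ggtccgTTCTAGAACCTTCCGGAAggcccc
Hsph1 site: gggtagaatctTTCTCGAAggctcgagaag
Dnajb1 site: cgggaggggcgGAAGGTTCtggagggctgg

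Some of these genes cannot be counted cleanly with short reads. The share of 75-base stretches of the exons that occur at more than 1 place in the genome was 54.2% in *Hspa1a* and 55.8% in *Hspa1b*, 2 near-identical genes of 1 exon each. It was 70.0% in *Hspa8*, 58.9% in *Hspb1*, 57.1% in *Hsp90aa1*, 40.5% in *Hspd1* and 14.0% in *Hspe1*, of which the last 2 have 5 and 6 pseudogenes named after them. It was 1.38% in *Hsp90ab1* and 0 in *Hsph1* and *Dnajb1*. The level of the 7 genes with more than 10% is therefore uncertain, and *Hspa1a* and *Hspa1b* were also analysed as a sum. The annotated span of *Hspd1* also covers *Hspe1* on the other strand, and the strand setting of the count is not given in the sources used here.

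Total counts ranged from 11936364 to 22788884 per library (median 17211939), so that 3 counts correspond to 0.139 to 0.256 CPM, which are read counts scaled to the size of the library. This is a limit for counting error only. The 10 members took between 0.156% and 0.604% of the counts of a library. *Park7*, the targeted gene, was at 20.6 to 32.1 CPM in the 9 wildtype mice and at 0.457 to 5.38 CPM in the 10 KO mice. The microglial label was checked on 8 markers, whose summed level was 24509 to 39222 CPM with PBS and 10289 to 16651 CPM after LPS, and each of the 8 fell after LPS in both genotypes. Of 5 monocyte markers 4 rose in both genotypes, and their sum was 131 to 319 CPM with PBS and 197 to 600 CPM after LPS. Of 5 markers of border-associated macrophages, which also carry CD11b, 3 fell and 0 rose in both genotypes, with sums of 369 to 490 CPM and 210 to 426 CPM. Of 7 neutrophil markers, 3 rose in wildtype and 4 in KO mice, with sums of 19.9 to 182 CPM and 85.9 to 411 CPM, while *Ly6g*, the marker that defines neutrophils, had a highest value of 1.79 CPM. In these bulk samples, fewer cells of a type and less RNA per cell cannot be told apart. Markers of other brain cells were present as well. The summed level of 5 oligodendrocyte markers ranged from 515 to 11235 CPM over the 19 libraries, and that of 5 astrocyte markers from 171 to 4241 CPM. Both were highest in KO replicate 1 with LPS, where the microglial sum was 12964 CPM. The part of all these cells in the results below was not tested.

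With PBS, the members differed widely in level. Levels between genes are compared as CPM per kilobase of annotated exon. In wildtype mice with PBS (mean and SD, n = 4), *Hsp90ab1*, the constitutive cytosolic HSP90, was highest at 85.6 ± 9.27 CPM per kilobase. It was followed by *Hspa8*, the constitutive cytosolic HSP70, at 76.6 ± 5.92, *Hspa1b* at 67.8 ± 28.5, *Hsp90aa1*, the inducible HSP90, at 53.6 ± 7.70, *Hspa1a* at 35.2 ± 14.1 and *Dnajb1*, a J-domain partner of HSP70, at 23.7 ± 3.12. *Hspb1*, a small heat shock protein also called HSP25, stood at 17.7 ± 4.66, *Hspd1* at 15.04 ± 1.35, *Hspe1* at 14.98 ± 3.85, and *Hsph1*, the exchange factor HSP110, was lowest at 5.34 ± 1.29 CPM per kilobase. The first and the last in this order differed 16.0-fold. Only *Hsph1* was apart from its neighbour by more than the sum of both SDs. After LPS *Hspa8* was at the top of the order in both genotypes, at 224 ± 45.3 CPM per kilobase (SD, n = 5) in wildtype and 234 ± 77.7 (SD, n = 5) in KO mice. With the length of the longest transcript in place of all exons, *Hspa8* was also at the top with PBS, and *Hsph1* was the lowest in every group on both scales.

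**Figure D1:**
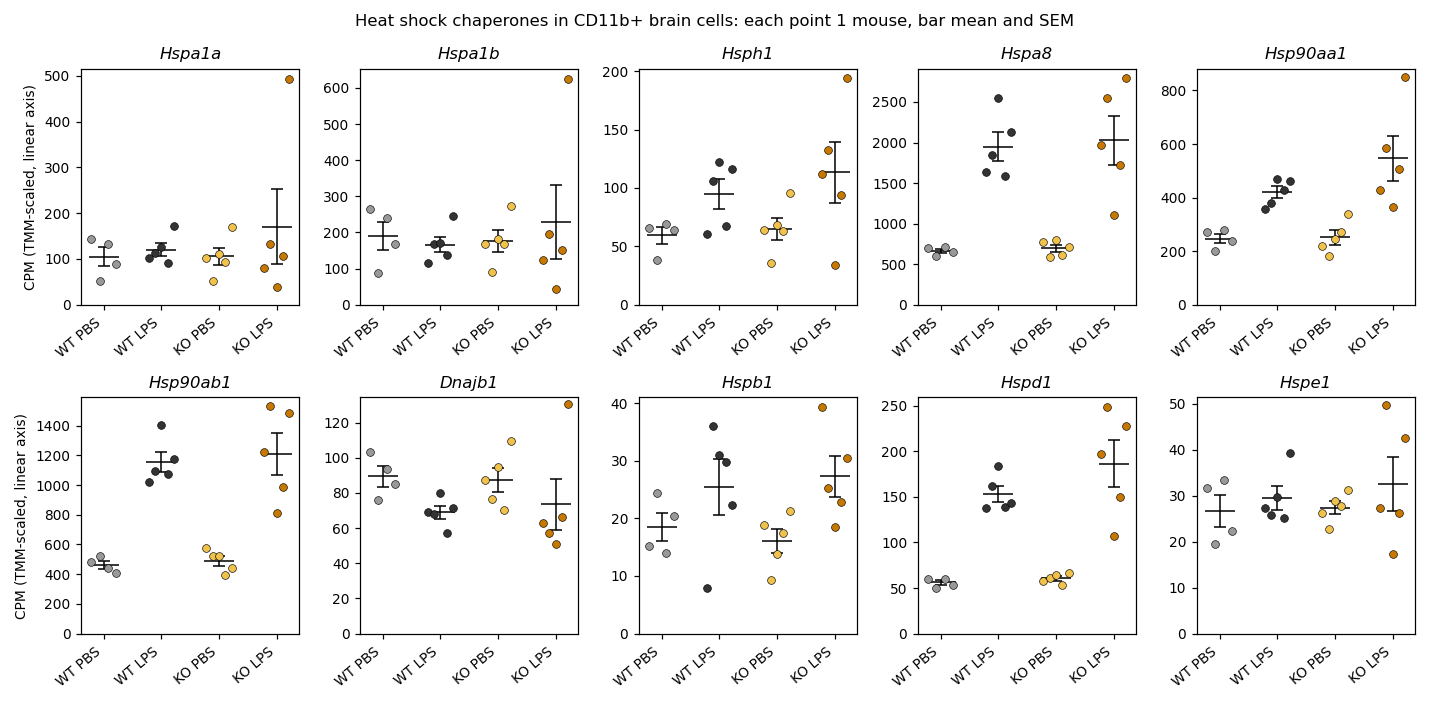
Level of each of the 10 heat shock chaperones in CPM of the TMM-scaled library (linear axis from 0) in the 4 groups, where a point is 1 mouse and the bar with whiskers is the mean and SEM. For *Hspa8*, *Hsp90ab1*, *Hsp90aa1* and *Hspd1* every LPS point lies above every PBS point of the same genotype, while for *Hspa1a*, *Hspa1b* and *Dnajb1* 1 KO mouse with LPS stands far above the other 4 of its group, at 493, 625 and 130 CPM.

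The first question was which of these chaperones responded to LPS. In wildtype mice 4 of the 10 members rose, *Hspa8*, *Hsp90ab1*, *Hspd1* and *Hsp90aa1*, and 0 fell, at an adjusted p-value under 0.05 and a log2FC of at least 0.5 in edgeR. Of all genes tested, 18.4% rose and 17.4% fell by this rule. The same 4 members rose and 0 fell in KO mice, where 20.1% of all genes rose and 19% fell. The groups did not overlap for these 4 members in either genotype, which held for 20.8% of all genes in the direction of a rise in wildtype and for 16.2% in KO mice. The median log2FC of the members was 0.56 in wildtype and 0.78 in KO mice, beside -0.06 and -0.01 over all genes. The inducible HSP70 genes and their partner *Dnajb1* were not among those that rose.

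*Hspa8*, which handles newly made proteins, uncoats clathrin vesicles and takes part in chaperone-mediated autophagy, had 703, 600, 710 and 648 CPM in the 4 wildtype mice with PBS and 1641, 1840, 2543, 1590 and 2124 CPM in the 5 with LPS. The KO mice had 769, 586, 799, 613 and 706 CPM with PBS and 1964, 2550, 1105, 1720 and 2801 CPM with LPS. The lowest mouse with LPS was thus above the highest with PBS in both genotypes, and the spread was wider in KO mice with LPS. The rise was 2.93-fold in wildtype (log2FC 1.55, SE 0.221, adjusted p = 1.36e-05) and 2.92-fold in KO mice (log2FC 1.55, SE 0.204, adjusted p = 4.68e-06).

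*Hsp90ab1*, which matures kinases and steroid receptors, had 480, 522, 441 and 406 CPM in wildtype mice with PBS and 1019, 1094, 1404, 1075 and 1174 CPM with LPS. In KO mice it had 575, 525, 520, 392 and 442 CPM with PBS and 1223, 1533, 812, 987 and 1486 CPM with LPS. All 10 mice with LPS were above all 9 with PBS. It rose 2.49-fold in wildtype (log2FC 1.32, SE 0.178, adjusted p = 7.48e-06) and 2.46-fold in KO mice (log2FC 1.30, SE 0.165, adjusted p = 2.91e-06).

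*Hsp90aa1*, its stress-inducible paralog, had 271, 201, 278 and 237 CPM in wildtype mice with PBS and 357, 380, 471, 427 and 462 CPM with LPS. In KO mice it had 219, 181, 246, 271 and 339 CPM with PBS and 428, 586, 366, 507 and 848 CPM with LPS. Its groups came closest to each other among the members that rose, with 339 CPM in the highest KO mouse with PBS and 366 CPM in the lowest with LPS. The rise was 1.70-fold in wildtype (log2FC 0.76, SE 0.211, adjusted p = 0.00641) and 2.18-fold in KO mice (log2FC 1.12, SE 0.198, adjusted p = 1.15e-04).

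*Hspd1*, the mitochondrial HSP60, had 60.4, 50.3, 60.2 and 53.5 CPM in wildtype mice with PBS and 138, 162, 184, 139 and 143 CPM with LPS. The KO mice had 58.1, 60.7, 64.4, 53.0 and 66.7 CPM with PBS and 197, 249, 107, 150 and 228 CPM with LPS. With PBS all 9 mice lay between 50.3 and 66.7 CPM, and the lowest of the 10 with LPS had 107 CPM. It rose 2.73-fold in wildtype (log2FC 1.45, SE 0.184, adjusted p = 3.71e-06) and 3.07-fold in KO mice (log2FC 1.62, SE 0.171, adjusted p = 3.22e-07).

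*Hspe1*, whose product closes the HSP60 chamber and which shares the promoter site shown above, did not pass the test. It had 31.6, 19.4, 33.4 and 22.4 CPM in wildtype mice with PBS and 27.4, 25.9, 29.8, 25.2 and 39.2 CPM with LPS. In KO mice the values were 26.1, 22.7, 28.8, 27.9 and 31.3 CPM with PBS and 27.3, 49.8, 17.4, 26.2 and 42.6 CPM with LPS. The groups overlapped in both genotypes. The log2FC was 0.14 (95% interval -0.37 to 0.66, adjusted p = 0.681) in wildtype and 0.25 (-0.23 to 0.74, adjusted p = 0.397) in KO mice, so that the upper bounds lay below the lower bounds of *Hspd1*, 1.06 and 1.26.

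**Figure D2:**
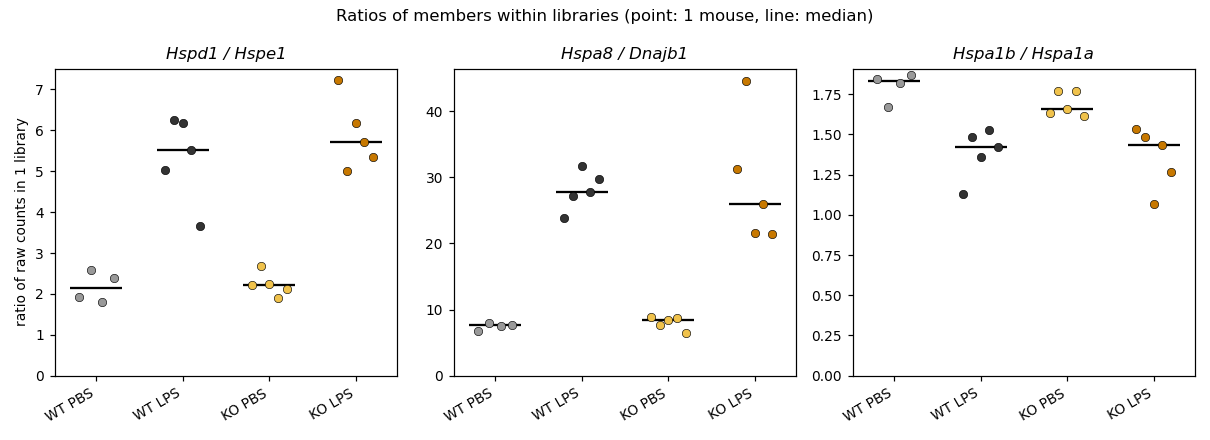
Ratio of the raw counts of 2 members within a library (linear axes from 0) in the 4 groups, where a point is 1 mouse and the line is the median of the group. The *Hspd1* to *Hspe1* ratio was 1.81 to 2.67 with PBS and 3.65 to 7.24 after LPS, the *Hspa8* to *Dnajb1* ratio 6.46 to 8.83 and 21.5 to 44.6, and the *Hspa1b* to *Hspa1a* ratio 1.61 to 1.87 and 1.07 to 1.54.

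The ratio of 2 genes in 1 library needs no scaling of libraries, and is given as a description with no test. In wildtype mice the *Hspd1* to *Hspe1* ratio of counts was 1.81 to 2.59 with PBS and 3.65 to 6.24 after LPS, and in KO mice 1.90 to 2.67 and 5.01 to 7.24. The *Hspa8* to *Dnajb1* ratio, between HSP70 and a J-domain partner, was 6.81 to 7.92 and 23.8 to 31.8 in wildtype and 6.46 to 8.83 and 21.5 to 44.6 in KO mice. Each of these ratios sets a member that rose over a member that did not, and no share over other pairs of genes was computed. Neither ratio overlapped between PBS and LPS in either genotype. The *Hsp90ab1* to *Hsp90aa1* ratio overlapped in both, at 1.58 to 2.60 and 2.52 to 2.98 in wildtype and 1.30 to 2.90 and 1.75 to 2.86 in KO mice. The *Hspa8* to *Hspa1a* ratio was 4.90 to 11.4 and 12.3 to 20.3 in wildtype mice, and overlapped in KO mice, at 4.16 to 11.4 with PBS and from 5.68 upwards after LPS. The ratio of *Hspa1b* to *Hspa1a* counts was 1.67 to 1.87 with PBS and 1.13 to 1.52 after LPS in wildtype mice, and 1.61 to 1.77 and 1.07 to 1.54 in KO mice. This ratio did not overlap between PBS and LPS in either genotype, although the stretches that both genes share limit what their separate counts mean.

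*Hspa1a*, the inducible HSP70, had 144, 52.6, 133 and 89.2 CPM in wildtype mice with PBS and 101, 113, 125, 90.0 and 172 CPM with LPS. The KO mice had 103, 51.4, 110, 94.1 and 170 CPM with PBS and 81.1, 132, 39.5, 105 and 493 CPM with LPS. The groups overlapped in both genotypes, and the KO mouse with 493 CPM stood apart. The log2FC after LPS was 0.20 (95% interval -0.89 to 1.29, adjusted p = 0.794) in wildtype and 0.69 (-0.34 to 1.72, adjusted p = 0.274) in KO mice.

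*Hspa1b*, its near-identical copy, had 265, 87.9, 241 and 167 CPM in wildtype mice with PBS and 114, 167, 170, 137 and 244 CPM with LPS. The KO mice had 168, 91.0, 182, 167 and 274 CPM with PBS and 125, 197, 42.2, 152 and 625 CPM with LPS. The mice that were lowest and highest for *Hspa1a* in a KO group were also lowest and highest here. The log2FC was -0.19 (-1.27 to 0.89, adjusted p = 0.806) in wildtype and 0.37 (-0.65 to 1.39, adjusted p = 0.578) in KO mice. Summed into 1 gene, both together had a log2FC of -0.04 (SE 0.517, adjusted p = 0.963) in wildtype and 0.50 (SE 0.489, adjusted p = 0.439) in KO mice. Without the KO mouse with LPS that stood apart, replicate 5, the log2FC in KO mice was -0.24 (adjusted p = 0.626) for *Hspa1a* and -0.45 (adjusted p = 0.37) for *Hspa1b*, so the direction of both in KO mice rested on that mouse.

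*Dnajb1*, the J-domain partner that stimulates HSP70, had 103, 75.8, 93.7 and 84.9 CPM in wildtype mice with PBS and 68.9, 67.8, 80.0, 57.1 and 71.2 CPM with LPS. The KO mice had 87.2, 76.5, 94.6, 70.0 and 109 CPM with PBS and 62.7, 57.2, 51.0, 66.2 and 130 CPM with LPS. In KO mice, 4 of the 5 values with LPS lay below all 5 with PBS and the other above all of them. The log2FC was -0.37 (-0.82 to 0.07, adjusted p = 0.178) in wildtype and -0.25 (-0.68 to 0.17, adjusted p = 0.333) in KO mice. Without KO replicate 5 with LPS the log2FC in KO mice was -0.56 (adjusted p = 0.00227) and passed both thresholds.

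*Hsph1*, the HSP110 that recharges HSP70 with ATP, had 66.0, 38.0, 69.1 and 64.3 CPM in wildtype mice with PBS and 60.7, 106, 122, 67.0 and 116 CPM with LPS. In KO mice it had 63.6, 35.7, 68.2, 62.9 and 95.3 CPM with PBS and 112, 133, 34.4, 94.1 and 194 CPM with LPS. Most mice with LPS were higher, but the groups overlapped in both genotypes. The log2FC was 0.67 (-0.09 to 1.43, adjusted p = 0.155) in wildtype and 0.80 (0.09 to 1.51, adjusted p = 0.0626) in KO mice. It passed in KO mice in DESeq2 (adjusted p = 0.0465), without KO replicate 3 with LPS (log2FC 1.03, adjusted p = 0.00546) and without KO replicate 5 with PBS (log2FC 0.98, adjusted p = 0.0341).

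*Hspb1*, which holds unfolded proteins and binds actin, had 15.3, 24.5, 13.9 and 20.4 CPM in wildtype mice with PBS and 7.93, 36.1, 31.1, 29.8 and 22.3 CPM with LPS. The KO mice had 18.8, 9.33, 13.9, 17.4 and 21.2 CPM with PBS and 39.4, 25.3, 18.5, 22.9 and 30.5 CPM with LPS. In wildtype mice, 1 mouse with LPS was the lowest of all 19, and the groups overlapped in both genotypes. The log2FC was 0.46 (-0.25 to 1.16, adjusted p = 0.306) in wildtype and 0.76 (0.10 to 1.42, adjusted p = 0.0573) in KO mice. It passed in wildtype mice without replicate 1 with LPS (log2FC 0.69, adjusted p = 0.0433). In KO mice it passed in DESeq2 (adjusted p = 0.038), with only the KO mice in the fit (adjusted p = 0.0258), without replicate 3 with LPS (adjusted p = 0.0393) and without replicate 5 with PBS (adjusted p = 0.0446). The lowest wildtype mouse with LPS, replicate 1, also had the lowest summed oligodendrocyte markers of all 19, at 515 CPM. The mouse highest for *Hspb1* was also highest for these markers among wildtype mice with PBS (9675 CPM) and with LPS (6692 CPM). It was so too among KO mice with LPS (11235 CPM). Among KO mice with PBS it was not, at 1052 CPM in replicate 5 beside 7361 CPM in replicate 1. The part of these cells was not tested.

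**Figure D3:**
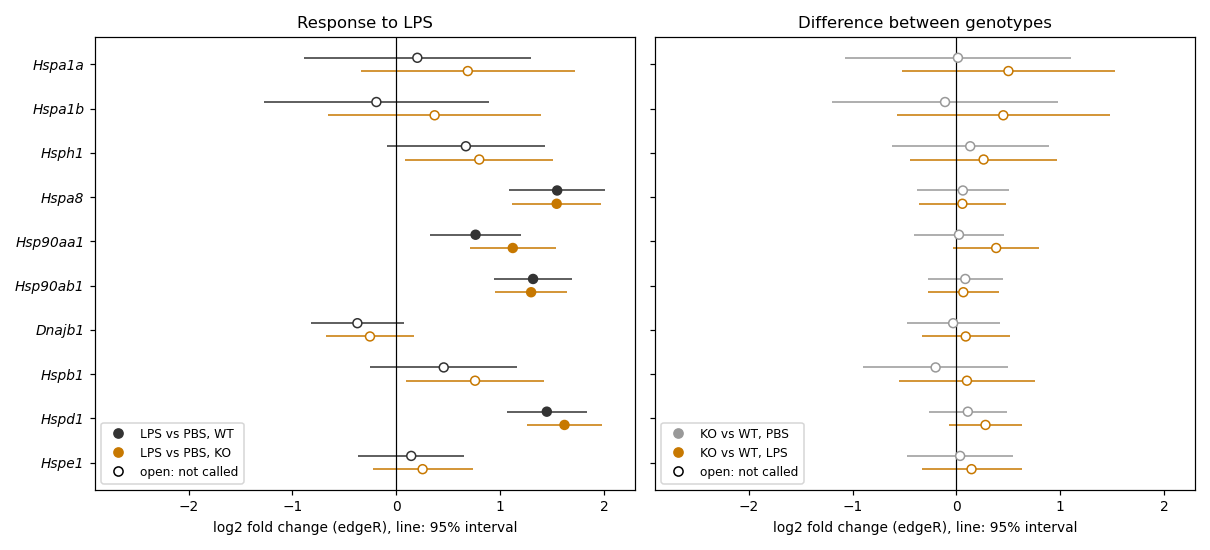
Log2 fold change of the 10 members in the edgeR fit with its 95% interval, for LPS against PBS in each genotype (left) and for KO against wildtype with each treatment (right), where filled points passed the thresholds and open points did not. The filled points are *Hspa8*, *Hsp90aa1*, *Hsp90ab1* and *Hspd1* after LPS, between 0.76 and 1.62, and no point of the right panel is filled.

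The second question was whether loss of *PARK7*/DJ-1 changed these levels. After LPS, 0 of the 10 members differed between KO and wildtype mice at an unadjusted p-value under 0.05 and a log2FC of at least 0.5, the rule by which 1.31% of all genes did, 245 genes, or 434 genes without KO replicate 5 with LPS. All adjusted p-values were 1.00, and the groups overlapped for each member, as they did for all but 0.219% of all genes. All 10 log2FC were above 0, which is a count over genes that share the same mice. The largest were 0.50 for *Hspa1a* (95% interval -0.53 to 1.53), 0.45 for *Hspa1b* (-0.57 to 1.48) and 0.38 for *Hsp90aa1* (-0.03 to 0.79). The others were 0.28 for *Hspd1* (-0.07 to 0.63), 0.26 for *Hsph1* (-0.45 to 0.97), 0.15 for *Hspe1* (-0.34 to 0.63), 0.10 for *Hspb1* (-0.56 to 0.76), 0.09 for *Dnajb1* (-0.33 to 0.51), 0.07 for *Hsp90ab1* (-0.27 to 0.41) and 0.06 for *Hspa8* (-0.36 to 0.48). The intervals of both inducible HSP70 genes reached past a log2 size of 1, and those of *Hspa8* and *Hsp90ab1* stayed within a log2 size of 0.5.

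The sign of several of these differences rested on the same KO mouse, replicate 5 with LPS. Without it, the log2FC between genotypes after LPS was -0.42 for *Hspa1a*, -0.37 for *Hspa1b*, -0.22 for *Dnajb1*, -0.09 for *Hspa8*, and -0.02 for both *Hsph1* and *Hsp90ab1*. The last sign and that of *Hspa8* also turned without KO replicate 2 with LPS (-0.03 and -0.04), and *Hspa8* without wildtype replicate 4 with LPS (-0.007). Of KO mice with LPS, replicate 3 lay furthest below its group mean, with a mean log2 deviation of -1.35 over *Hspa1a*, *Hspa1b*, *Hsph1* and *Dnajb1*. That of replicate 5 was 1.49. In that mouse the summed level of 14 immediate early genes, which are known to be induced also by cell handling, was 17010 CPM, beside 4837 to 8842 CPM in the other 4 KO mice with LPS, 6653 to 10875 CPM in the 5 wildtype mice with LPS and 3536 to 6178 CPM in the 9 mice with PBS. After LPS 6 of the 14 rose in wildtype and 7 in KO mice, and 0 fell. Its summed microglial markers, at 16418 CPM, were within the range of its group, and its monocyte markers, at 197 CPM, were the lowest of its group. Its astrocyte markers, at 171 CPM, and its endothelial markers, at 56.3 CPM, were the lowest of all 19 libraries. The part of handling and of these cells in the values was not tested.

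With PBS, 0 of the 10 members differed between genotypes, by a rule that 0.8% of all genes met. The log2FC ranged from -0.20 for *Hspb1* (-0.90 to 0.50) to 0.13 for *Hsph1* (-0.62 to 0.89). The difference between the genotypes in the response to LPS was tested as an interaction. It passed an adjusted p-value under 0.05 for 0 of the 10 members and for 0% of all genes in edgeR, where 180 of the 18739 genes had an unadjusted p-value under 0.05, and for 0 genes in DESeq2. The largest interaction terms were 0.56 for *Hspa1b* (-0.93 to 2.05), 0.49 for *Hspa1a* (-1.01 to 1.98) and 0.36 for *Hsp90aa1* (-0.24 to 0.96). Without KO replicate 5 with LPS they were -0.26 for *Hspa1b* and -0.44 for *Hspa1a*. The comparisons of genotypes and of treatments share groups of mice, so that a high value in 1 group enters more than 1 of them.

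The remaining chaperones and their cofactors were followed with 8 lists of 96 genes, of which 91 were tested. In wildtype mice 36 of the 91 rose after LPS and 6 fell, and in KO mice 36 rose and 7 fell. By the same rule 18.4% of all genes rose and 17.4% fell in wildtype mice, and 20.1% rose and 19% fell in KO mice. The median log2FC was 0.28 in wildtype and 0.39 in KO mice, beside -0.06 and -0.01 over all genes.

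**Figure D4:**
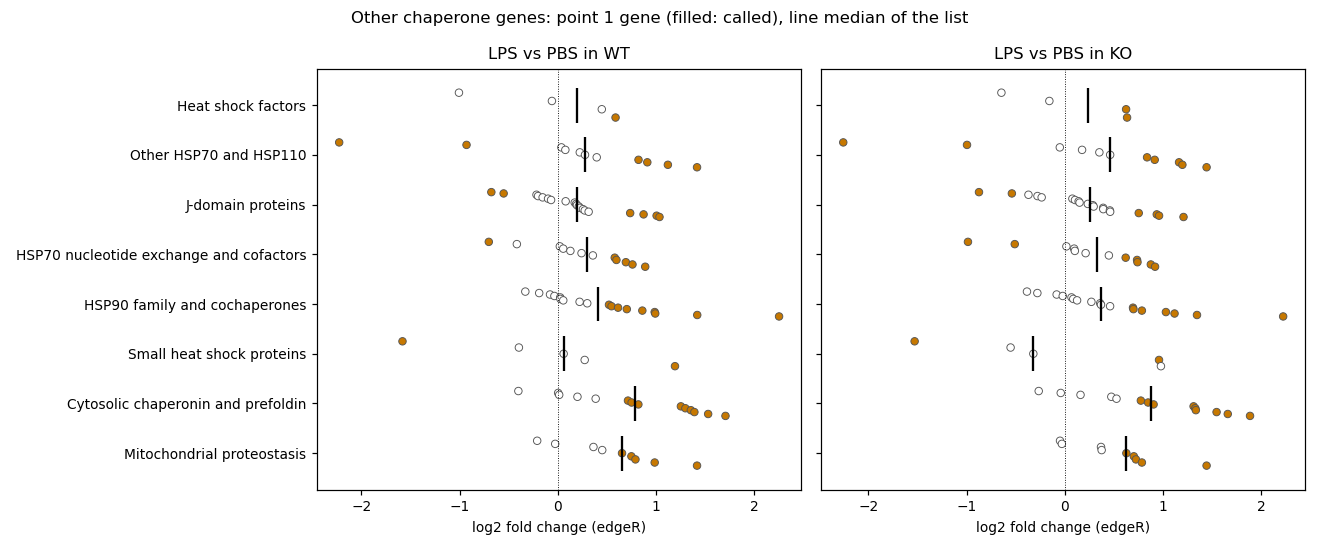
Log2 fold change of LPS against PBS in wildtype (left) and KO mice (right) for the genes of 8 chaperone lists, where a point is 1 gene, filled where it passed the thresholds, and the line is the median of the list. The median is furthest right for the cytosolic chaperonin and prefoldin, at 0.79 and 0.87, and 9 of its 14 genes are filled in each panel.

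The cytosolic chaperonin, a ring of 8 kinds of subunit that folds actin and tubulin, and prefoldin, which delivers substrates to it, made up a list of 14 tested genes. In both genotypes 9 of them rose and 0 fell. *Cct3* rose most surely in wildtype mice (log2FC 1.71, adjusted p = 2.89e-08), with 1.88 in KO mice, followed by *Cct6a* at 1.53 and 1.66 and *Tcp1* at 1.36 and 1.33. All 8 chaperonin subunits of the list rose, whereas of the prefoldin genes 1, *Pfdn4*, did.

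Among the mitochondrial genes 5 of 9 rose and 0 fell in both genotypes. *Hspa9*, the mitochondrial HSP70, rose by a log2FC of 1.42 in wildtype and 1.44 in KO mice, and *Trap1*, the mitochondrial HSP90, by 0.99 and 0.78. The proteases *Afg3l2* (0.79 and 0.70), *Lonp1* (0.75 and 0.72) and *Clpp* (0.66 and 0.63) rose as well. The remaining 4 did not pass both thresholds, with 0.45 and 0.37 for *Clpb*, 0.36 and 0.37 for *Yme1l1*, -0.03 and -0.03 for *Clpx* and -0.21 and -0.05 for the intermembrane protease *Htra2*.

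Of the 18 genes of the HSP90 family and its cochaperones, 9 rose in wildtype and 7 in KO mice, and 0 fell. *Fkbp5*, a cochaperone of steroid receptors that is induced by glucocorticoids, had the largest change of the 18, with a log2FC of 2.26 in wildtype and 2.22 in KO mice. *Stip1*, which hands substrates from HSP70 to HSP90, rose by 1.42 and 1.34, and *Ppid*, the cyclophilin of the HSP90 complex, by 0.86 and 1.03. *Ppp5c* and *Unc45a* rose by 0.55 and 0.52 in wildtype mice and had 0.46 and 0.36 in KO mice, under the threshold of 0.5, with no difference shown between the genotypes. *Hsp90b1*, the HSP90 of the endoplasmic reticulum, had -0.19 and -0.08 and did not pass.

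Of the other HSP70 and HSP110 genes, 4 of 11 rose in wildtype and 5 in KO mice, and 2 fell in both. Those that rose most surely were *Hspa9*, *Hyou1* (1.12 and 1.16), *Hspa4*, an HSP110 of the cytosol (0.82 and 0.84), and *Hspa5*, the HSP70 of the endoplasmic reticulum also called BiP (0.91 and 1.20). *Hspa12b*, an endothelial gene, fell by 2.23 and 2.26 on the log2 scale, and *Hspa12a* fell by 0.93 and 1.00. Of 4 endothelial markers, 2 fell and 0 rose in each genotype. Their sums overlapped, at 311 to 987 CPM with PBS and 56.3 to 520 CPM after LPS. Whether endothelial cells bear on the fall of *Hspa12b* and *Hspa12a* was not tested.

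Of the 20 J-domain proteins, 4 rose and 2 fell in both genotypes, where 18.4% of all genes rose in wildtype and 20.1% in KO mice. *Dnaja2*, an HSP70 partner of the cytosol, rose by 0.88 and 0.93, *Dnajc21*, which acts in ribosome assembly, by 1.01 and 1.21, and *Dnajc2* by 1.04 and 0.96. *Dnajb14* fell by 0.68 and 0.87 and *Dnajc7* by 0.55 and 0.54. Of the 12 nucleotide exchange factors and cofactors of HSP70, 5 rose in both genotypes, 1 fell in wildtype and 2 fell in KO mice. *Grpel1*, the mitochondrial exchange factor, rose by 0.89 and 0.92, *Hspbp1* by 0.76 and 0.87 and *Grpel2* by 0.69 and 0.74, while *Sil1*, the exchange factor of BiP, fell by 0.70 and 0.99. *Bag4* fell by 0.51 in KO mice and had -0.42 in wildtype mice, an interaction of -0.09 that did not pass (adjusted p = 1.00).

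Of the 5 small heat shock proteins that were tested, *Hspb6* rose (1.19 and 0.96), *Hspb3* fell by 1.58 and 1.53 on the log2 scale, and *Hspb7*, *Hspb8* and *Cryab* did not pass. By the same rule 18.4% of all genes rose and 17.4% fell in wildtype mice, and 20.1% rose and 19% fell in KO mice. The levels of *Hspb6* and *Hspb3* were low, at 1.52 to 9.04 CPM and 0.675 to 4.17 CPM. *Hspb2*, *Hspb9*, *Hspb11* and *Cryaa* were not tested. Of the heat shock factors, *Hsf1*, the main regulator of the heat shock response, rose by 0.59 in wildtype and 0.63 in KO mice, and *Hsbp1*, which binds it, had 0.45 in wildtype mice and rose by 0.62 in KO mice. *Hsf1* was at 46.6 to 51.5 CPM in wildtype mice with PBS and 59.3 to 84.2 CPM after LPS. *Hsf5* was not tested. *Hsf2* had -0.06 and -0.16 and *Hsf4* -1.01 and -0.65, and neither passed.

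Between KO and wildtype mice after LPS, 1 of the 91 genes passed the unadjusted p-value under 0.05 and log2FC of 0.5 that 1.31% of all genes passed, which is no more than that background. It was *Hspa1l*, an HSP70 gene best known from the testis that lies beside *Hspa1a*. It was at 1.25 to 1.63 CPM in wildtype mice and 1.18 to 4.26 CPM in KO mice (log2FC 0.75, SE 0.298, unadjusted p = 0.022, adjusted p = 1.00). Without KO replicate 5, 0 of the 91 genes passed, and without wildtype replicate 5, 2 were higher in KO mice. With the replicate block, and without KO replicate 4, 1 of the 91 genes was lower in KO mice. With PBS, and in the interaction, 0 of the 91 genes passed.

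**Figure D5:**
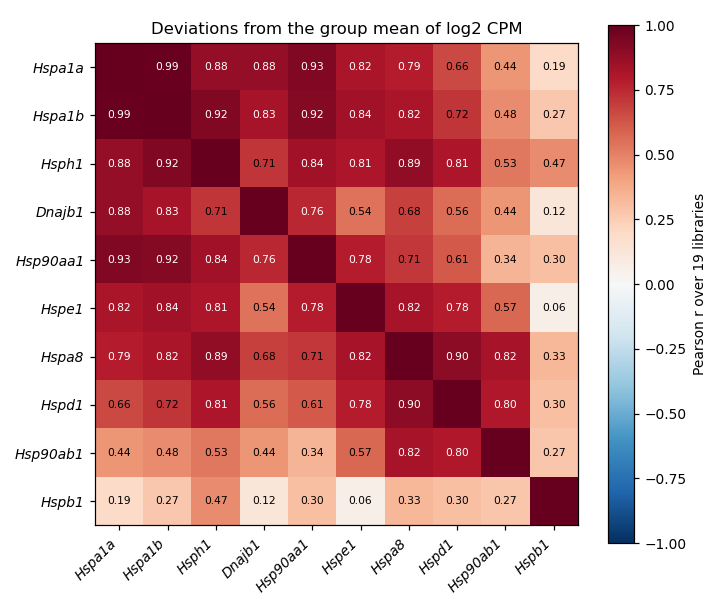
Pearson correlation between the members' deviations from their group means of log2 CPM, over 19 libraries and with the 4 groups removed. *Hspa1a*, *Hspa1b*, *Hsph1*, *Dnajb1* and *Hsp90aa1* are at 0.71 to 0.99 with each other, or 0.55 to 0.98 without KO replicate 5 with LPS (not drawn). *Hspa8* is at 0.68 to 0.89 with these genes and *Hspe1* at 0.54 to 0.84, while *Hspb1* is at 0.06 to 0.47 with every other member.

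The third question was how the members varied from mouse to mouse within groups. The deviation of each mouse from its group mean in log2 CPM was compared between members over 19 libraries, which share their depth and the scaling, and the values are a description with no test. Over the 45 pairs the median Pearson r was 0.72, with a range from 0.06 to 0.99, and 32 pairs were over 0.5. The same was not computed for pairs of other genes, so whether the members varied together more than other genes is not known. *Hspa1a* and *Hspa1b*, which share reads, were at 0.99, *Hspa1a* and *Hsp90aa1* at 0.93, and *Hspa1a* and *Dnajb1* at 0.88. *Hspa8* and *Hspd1* were at 0.90, while *Hspd1* and *Hspe1*, the pair with 1 shared promoter, were at 0.78. *Hspb1* reached at most 0.47, with *Hsph1*. The median was 0.66 without KO replicate 5 with LPS and 0.65 in the 9 mice with PBS alone, where the range reached down to -0.60, between *Hsp90aa1* and *Hsp90ab1*. The low values of *Hspa1a* with PBS were those of wildtype replicate 2 and KO replicate 2, at 52.6 and 51.4 CPM. The summed oligodendrocyte markers of that wildtype library, at 9675 CPM, were the highest of its group, where the median was 1443 CPM, as were its astrocyte, endothelial, neuronal and monocyte markers, at 2862, 987, 51.5 and 319 CPM, while its microglial markers were the lowest. In that KO library the oligodendrocyte markers were at 3018 CPM, within the 1002 to 7361 CPM of its group (median 2659 CPM). Its microglial markers, at 39222 CPM, were the highest of all 19 libraries, and its monocyte markers, at 149 CPM, the lowest of its group. The immediate early genes were the lowest of their group in both libraries, at 5173 CPM in the wildtype and 3536 CPM in the KO one. Of the 5 oligodendrocyte markers, 0 passed in either LPS comparison, and whether handling or any of these cells bear on the low values was not tested.

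Among 15779 other genes with a mean of at least 1 CPM, the one most like the mean deviation of *Hspa1a*, *Hspa1b*, *Hsph1* and *Dnajb1* was *Dnaja1*, another J-domain partner of HSP70, with an r of 0.92 over 19 libraries. It was followed by *Dvl1*, *Zfp598*, *Zbed5* and *Pmaip1*, at 0.91, 0.91, 0.90 and 0.89. This order rested on KO replicate 5 with LPS, without which r was 0.83 for *Dnaja1*, below the 0.85 of both *Dvl1* and *Zfp598*. Most like *Hspd1* and *Hspe1* were *Mtg2*, *Celf1*, *Dhx30*, *Pum3* and *Slc16a10*, at 0.90 to 0.93. *Dnaja1* itself had a log2FC after LPS of 0.26 in wildtype and 0.46 in KO mice and passed in neither.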

How the data were processed

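Stranded total RNA of CD11b+ cells from 19 mice was sequenced as paired reads after removal of ribosomal RNA. The authors trimmed the reads with Cutadapt, aligned and counted them with STAR 2.7.9a on GRCm39 with an Ensembl annotation, and deposited raw counts per gene, 1 column for each mouse. How reads that fit several places were treated is not given in the sources used here. In R 4.3.3 with edgeR 4.0.16, filterByExpr (minimum count 10, minimum total 15) left 18739 genes, TMM scaled the libraries, and 1 quasi-likelihood fit with 4 groups held all 19. P-values were adjusted by Benjamini-Hochberg over all genes tested, with the thresholds of the authors' methods. The SE is the log2FC divided by the square root of F, intervals are 95% intervals, and CPM are counts relative to the TMM-scaled library size. Names, lengths and starts came from GENCODE M39 on GRCm39. The scripts were tested on simulated counts. Alternatives were DESeq2 1.42.0, its size factors in edgeR, other filters and thresholds, 2 groups in a fit, a replicate block, the animal number as covariate, *Hspa1a* and *Hspa1b* summed, and each library left out. Named are the 10 members, *Park7*, up to 3 called genes per direction and chaperone list by smallest p-value, lists of up to 10 genes in full, called list genes between genotypes, and the 5 genes most like 2 sets of members. *Hsp90b1*, *Ppp5c*, *Unc45a*, *Pfdn4* and *Ly6g* were named after their values were seen. The members, lists and tests were chosen with earlier results of these data known. No 2 libraries of a group agreed within sampling noise (smallest chi-square 6.50 per degree of freedom). Promoter sequences are shown for some members only.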

Additional observations from a re-analysis of the deposited data

Results flagged for a closer look

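The highest and lowest mouse of each group was compared with its neighbours for each member by Dixon's ratio, over 40 groups of 4 or 5 libraries, where chance alone would single out about 1 group in 20. A mouse stood apart in 4 groups. KO replicate 5 with LPS was far above the other 4 mice of its group for *Hspa1a* (493 CPM, group median 105), *Hspa1b* (625 CPM, group median 152) and *Dnajb1* (130 CPM, group median 62.7). These 3 are measured in the same library and are not independent. Wildtype replicate 2 with PBS was far below the other 3 mice of its group for *Hsph1* (38.0 CPM, group median 65.2).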

How the results depend on the processing

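*Hspa8*, *Hsp90aa1*, *Hsp90ab1* and *Hspd1* rose after LPS in both genotypes under all 10 alternatives run and without any 1 library. Of 630 recomputed values of single members, 601 kept direction and call, 9 were newly called and 0 lost a call. Without 1 library, 4 to 5 members were called in wildtype and 4 to 6 in KO mice for LPS, and 0 between genotypes after LPS, with PBS and in the interaction, as under every alternative run. The cause of the changes below was not tested. The sign turned under the replicate block for *Hspa1a* in wildtype mice after LPS (-0.043) and with the animal number as covariate for *Dnajb1* between genotypes after LPS (-0.030). Leaving out 1 library gave, for LPS in wildtype mice, -0.00083 to 0.40 (*Hspa1a*) and -0.41 to 0.012 (*Hspa1b*), and for LPS in KO mice -0.24 to 0.94 (*Hspa1a*) and -0.45 to 0.64 (*Hspa1b*). Between genotypes after LPS it gave -0.42 to 0.76 (*Hspa1a*), -0.37 to 0.72 (*Hspa1b*), -0.22 to 0.20 (*Dnajb1*), -0.021 to 0.49 (*Hsph1*), -0.087 to 0.21 (*Hspa8*), -0.033 to 0.18 (*Hsp90ab1*), -0.13 to 0.25 (*Hspb1*) and -0.057 to 0.31 (*Hspe1*), and in the interaction -0.44 to 0.74 (*Hspa1a*) and -0.26 to 0.83 (*Hspa1b*). *Hsp90aa1* and *Hspd1* kept their sign between genotypes after LPS, at 0.17 to 0.50 and 0.15 to 0.43. In the interaction *Hsp90aa1* kept its sign as well, at 0.14 to 0.48. The median correlation of 0.72 was 0.65 with PBS libraries only and 0.66 without KO replicate 5 with LPS, an alternative chosen after the data were seen.

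Over all genes, calls between genotypes moved most: after LPS from 245 to 854 with no filter, 111 with at least 10 counts in every library, 105 with only the 2 groups compared and 2 with an adjusted p-value, with 228 to 434 when 1 library was left out (434 without KO replicate 5), and with PBS from 150 to 680, 58, 145 and 1, and to 234 with the replicate block and 253 with the animal number. Same-numbered mice were not treated as pairs in the main fit, and the labels do not say whether they were handled together. Their deviations correlated at -0.04 to 0.58 (mean 0.33) over 4 wildtype pairs of PBS and LPS. Over 5 KO pairs the range was 0.03 to 0.54 (mean 0.25). Between genotypes it was -0.57 to 0.30 after LPS and -0.29 to 0.30 with PBS. With the replicate block 4 members were called for LPS in each genotype and 0 between genotypes.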
